A study of Homo sapiens with 4 samples.

Results

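The EGF receptor family was followed through 9 genes chosen by name, the receptors EGFR, ERBB2 and ERBB3 and the ligands AREG, EREG, HBEGF, TGFA, BTC and NRG1. All 9 were in the deposited expression table of 17041 genes, matched by Ensembl gene identifier, and 1 of the 3768 deposited splicing events, in NRG1, belonged to them. The cells were A549, a human lung adenocarcinoma line. For 2 libraries, RBM10, a splicing regulator that binds pre-mRNA, had been knocked down by lentiviral transduction with an shRNA, and the cells kept in puromycin at 1 µg/mL for 10 to 14 days. The other 2 libraries came from RBM10 wild-type cells. Their labels name neither a control shRNA nor puromycin, so that loss of RBM10 cannot be told apart from transduction and selection. All 4 libraries carry the same batch label. The knockdown is a selected population made with 1 shRNA sequence, and nothing in the labels says that the replicates were separate cultures, so that p-values rest on a spread between libraries that could be technical alone.

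Receptors of this family are tyrosine kinases that pair on ligand binding and signal through RAS and ERK and through PI3K and AKT. AREG, EREG, HBEGF, TGFA and BTC bind EGFR, HBEGF, EREG and BTC also bind ERBB4, and NRG1 binds ERBB3 and ERBB4. ERBB2 has no known ligand of its own and acts as the partner of the others, while the kinase of ERBB3 is weak and depends on its partner. The ligands are made as membrane proteins and most are released by metalloproteases. In lung adenocarcinoma, EGFR is best known for its activating mutations and as a drug target.

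Expression was read as RPKM, which divides reads by transcript length and by the reads of the library, and compared on log2(RPKM + 1) with limma over 10182 genes, those whose mean reached 1 RPKM in either group. RBM10 itself was at 11.6 and 10.9 RPKM in the knockdown libraries, against 35.5 and 40.8 RPKM in the wild-type libraries (log2 change -1.67, SE 0.11; limma, BH adjusted p = 1.01e-05). Knockdown replicates 1 and 2 had 84.5% and 95.6% of the depth of the deepest library, and wild-type replicates 1 and 2 had 99.0% and 100%. Of all tested genes 22.3% passed, 15.3% as higher and 7.03% as lower, and these shares depend on scaling, since 54.5% of the calls were higher under quantile normalization and 45.4% under median-of-ratios scaling, against 68.5% as deposited. Of 6 epithelial markers, which A549 cells carry, 5 passed as higher, and their summed level was 4347 and 4312 RPKM in knockdown, against 2357 and 2690 RPKM in wild type. Of 6 fibroblast markers 5 were listed, summing to 2.12 and 2.02 RPKM in knockdown and to 0.570 and 0.843 RPKM in wild type, mostly THY1, with PDGFRA and PDGFRB below 0.1 RPKM in every library. Of 6 immune markers 3 were listed, at 3.90 and 3.94 RPKM in knockdown and 1.74 and 2.01 RPKM in wild type, mostly CD68, and of 5 endothelial markers PECAM1 alone was listed, below 0.1 RPKM in every library. The part of these markers in the results on the family was not tested.

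AREG and NRG1 were the members that passed the test, in opposite directions. AREG, amphiregulin, fell to 56.2% of its wild-type level, and NRG1, neuregulin 1, rose to 1.83 times its own. Of the 9 members 5 reached the level for testing, EGFR, ERBB2, AREG, EREG and NRG1, of which 1 rose, 1 fell and 3 did not pass. Since 22.3% of all tested genes passed, this count is not by itself a result about the family. The median log2 change of the 5 was 0.23, beside 0.02 over all tested genes.

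The promoters of AREG and of its neighbour EREG are shown because AREG fell while EREG, which lies beside it, did not pass the test. A difference between the changes of AREG and EREG was not tested. The ratio of AREG to EREG was 13.4 and 7.30 in knockdown and 12.2 and 15.1 in wild type, and these ranges overlap. The part of the motifs below in either level was not tested. The 2 genes follow each other on the plus strand of chromosome 4 (hg38), EREG from 74365143 to 74388751 and AREG from 74445134 to 74455009, with 56383 bases between them, and BTC follows on the minus strand from 74744759 to 74794686. GENCODE v29 places no other protein-coding gene wholly between EREG and BTC. The sequences are the 250 bases before the RefSeq start (GRCh38.p14), 5′ to 3′ on the plus strand, with motif matches in capitals.
AREG, chr4:74444886-74445135: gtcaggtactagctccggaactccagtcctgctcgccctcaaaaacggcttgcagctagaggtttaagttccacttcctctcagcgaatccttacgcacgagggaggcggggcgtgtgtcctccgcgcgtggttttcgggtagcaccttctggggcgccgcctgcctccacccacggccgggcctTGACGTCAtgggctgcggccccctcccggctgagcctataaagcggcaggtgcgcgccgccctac
EREG, chr4:74364895-74365144: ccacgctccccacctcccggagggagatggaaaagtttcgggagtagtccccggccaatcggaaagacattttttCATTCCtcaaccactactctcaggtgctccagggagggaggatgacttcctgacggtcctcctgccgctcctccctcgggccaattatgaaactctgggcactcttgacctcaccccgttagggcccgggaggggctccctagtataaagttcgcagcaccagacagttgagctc
The capitals in AREG are TGACGTCA, the cAMP response element, whose first base lies 65 bases before the start. Of 35116 promoter windows of this length, 1.65% held that motif, and of the 7 members with a window AREG was the 1 that did. The capitals in EREG are a TEAD motif, GGAATG, read on the minus strand, 175 bases before the start, which 11.9% of windows held. Both strands were searched, and no motif overlapped another here. AP-1, TGACTCA, held by 4.20% of windows, was the remaining motif searched and was in neither of these windows. ERBB3 and NRG1 had no window in the table used.

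AREG had the highest level in RPKM of the 9 genes in every library. It was at 24.8 and 23.6 RPKM in the knockdown libraries, against 44.8 and 41.3 RPKM in the wild-type libraries. The groups stood far apart compared with the spread inside either of them. In bulk RNA, fewer cells that make a transcript and less of it per cell cannot be told apart. The log2 change was -0.80 (SE 0.10; 95% interval -1.03 to -0.58; limma, BH adjusted p = 0.000449). The deposited values are whole multiples of a step that is worth 1 read, which gives the depth behind each: AREG stood at 1215 and 1312 steps in knockdown and at 2577 and 2397 steps in wild type. By the same reckoning the lowest multiple above an empty gene was 2, so a count of steps may be 1 above the count of reads.

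EREG, epiregulin, is the closest relative of AREG by position, and its libraries did not separate. It was at 1.85 and 3.23 RPKM in knockdown, against 3.67 and 2.73 RPKM in wild type. The higher knockdown library lay between the wild-type libraries, and the lower one below both. The log2 change was -0.27 (95% interval -0.68 to 0.15; limma, BH adjusted p = 0.342). Its sign rested on knockdown replicate 1, without which it was 0.02 (adjusted p = 0.964), whereas without knockdown replicate 2 it was -0.55 and passed (adjusted p = 0.0176). The steps behind these values were 316 and 625 in knockdown and 735 and 552 in wild type.

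NRG1 rose. It was at 8.58 and 9.05 RPKM in knockdown, against 5.29 and 4.37 RPKM in wild type, and every knockdown value lay above every wild-type value. The log2 change was 0.76 (SE 0.12; 95% interval 0.49 to 1.02; limma, BH adjusted p = 0.00185). It rested on 4073 and 4864 steps in knockdown and on 2945 and 2455 steps in wild type. The gene is the longest of the family, spanning 1128574 bases of chromosome 8 from 31639386 to 32767959 on the plus strand. AREG and NRG1 kept their calls and directions under the 10 alternative settings tried, with log2 changes of -0.92 to -0.75 for AREG and 0.64 to 0.87 for NRG1.

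HBEGF, BTC and TGFA, ligands of EGFR, stayed below 1 RPKM in both groups and were outside the main test. HBEGF was at 0.844 and 0.834 RPKM in knockdown and at 0.967 and 0.741 RPKM in wild type, so that both knockdown values fell inside the wild-type range. BTC, betacellulin, was at 0.333 and 0.431 RPKM in knockdown and at 0.356 and 0.362 RPKM in wild type, with the wild-type values inside the knockdown range. TGFA was at 0.240 and 0.259 RPKM in knockdown, against 0.130 and 0.0996 RPKM in wild type. These are few reads, 63 and 77 steps in knockdown and 40 and 31 steps in wild type. By mean RPKM, TGFA in knockdown was at 2.17 times its wild-type level. The TGFA groups did not overlap, which holds for 56.1% of all listed genes. When all 17041 genes were tested without the filter on level, TGFA had a log2 change of 0.16 (95% interval 0.08 to 0.25; adjusted p = 0.0524), HBEGF of -0.01 (-0.25 to 0.23; adjusted p = 0.964) and BTC of 0.02 (-0.12 to 0.17; adjusted p = 0.822) in limma with BH adjustment. The pseudocount of 1 holds such changes down, and with 0.1 that of TGFA was 0.70.

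**Figure D1:**
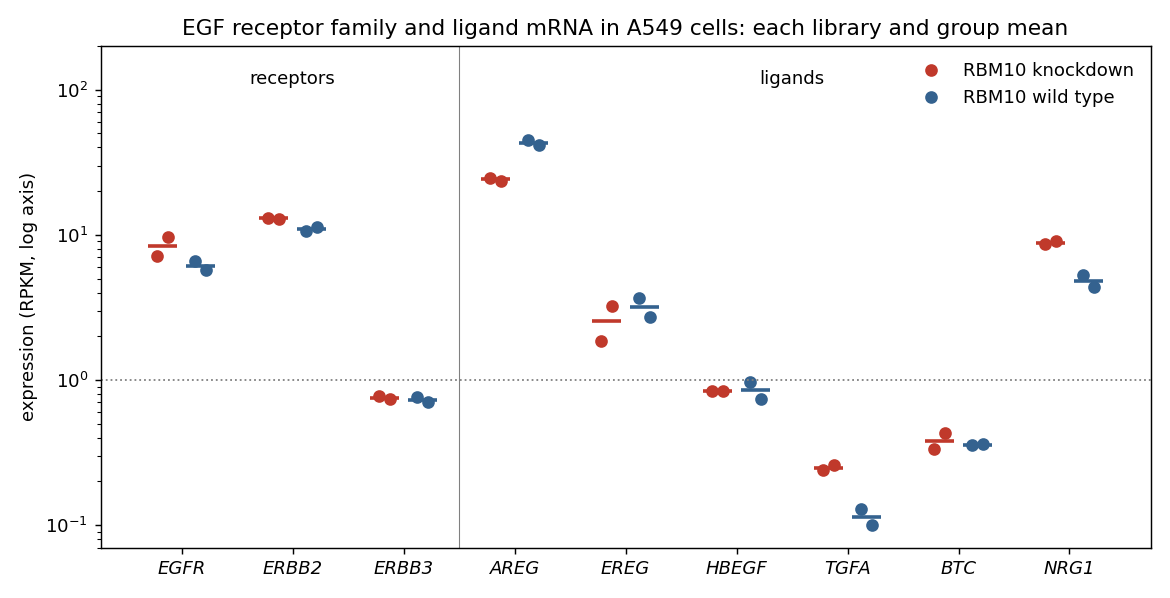
Expression of the 3 receptors and 6 ligands in RPKM on a log axis, with a point for each library and a line for the mean of the 2 libraries of a group, knockdown left of wild type. AREG lies lower and NRG1 higher in knockdown with no overlap, the groups overlap for EREG, HBEGF, BTC and ERBB3, and ERBB3, HBEGF, TGFA and BTC lie below the dotted line at 1 RPKM.

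Of the receptors none passed the test, although EGFR and ERBB2 read higher in both knockdown libraries. EGFR (chromosome 7, 55019021 to 55211628) was at 7.15 and 9.63 RPKM in knockdown, against 6.57 and 5.71 RPKM in wild type. Its groups did not overlap, but the knockdown libraries lay further from each other than the nearer of them lay from wild type. The log2 change was 0.39 (SE 0.14; unadjusted 95% interval 0.07 to 0.71; limma, BH adjusted p = 0.0834). The call depended on single libraries: leaving out knockdown replicate 1 (0.58, adjusted p = 0.0161) or wild-type replicate 1 (0.47, adjusted p = 0.0472) made it pass as higher, while without knockdown replicate 2 the log2 change was 0.19 (adjusted p = 0.571).

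ERBB2 (chromosome 17, 39687914 to 39730426) was at 13.1 and 12.9 RPKM in knockdown, against 10.6 and 11.3 RPKM in wild type. Its libraries lay close together within each group and the groups did not overlap, which holds for 61.5% of tested genes. The log2 change was 0.23 (SE 0.10; 95% interval -0.0026 to 0.46; limma, BH adjusted p = 0.145). ERBB3 (chromosome 12, 56076799 to 56103505), the receptor for NRG1, stayed below the level for testing. It was at 0.775 and 0.740 RPKM in knockdown and at 0.764 and 0.704 RPKM in wild type, and the ranges overlapped. Without the filter its log2 change was 0.02 (95% interval -0.17 to 0.20; limma, BH adjusted p = 0.891). EGFR overlaps EGFR-AS1 and ERBB2 overlaps PGAP3 and MIEN1 on the opposite strand. The kit marks strand, but the use of strand in counting is not given in the sources used here, so reads of these partners cannot be told apart from those of the receptors.

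**Figure D2:**
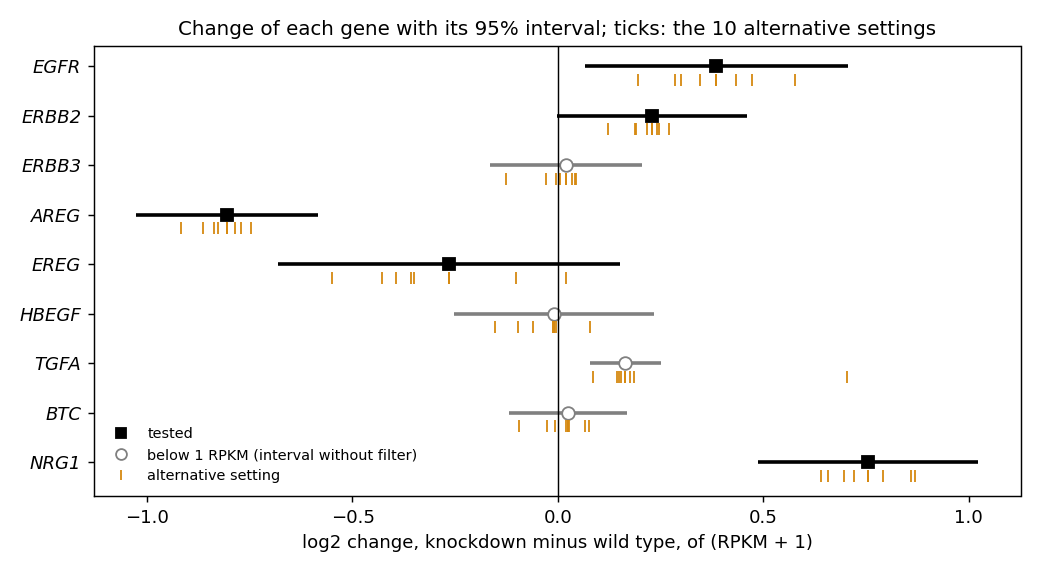
Log2 change in RPKM + 1, knockdown minus wild type, of each member with its unadjusted 95% interval from limma, as filled squares for tested genes and as open circles, with the interval of the fit without a filter, for genes below 1 RPKM. Orange ticks are the values under 10 alternative settings. The ticks of AREG and NRG1 stay on one side of 0, and those of EREG lie on both sides.

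RPKM allows levels to be ordered within a library, and the order of the group means differed between the groups at 1 place. In knockdown the mean levels ran AREG 24.2, ERBB2 13.0, NRG1 8.81, EGFR 8.39, EREG 2.54, HBEGF 0.839, ERBB3 0.757, BTC 0.382 and TGFA 0.249 RPKM. In wild type they ran AREG 43.0, ERBB2 10.9, EGFR 6.14, NRG1 4.83, EREG 3.20, HBEGF 0.854, ERBB3 0.734, BTC 0.359 and TGFA 0.115 RPKM. By group mean NRG1 and EGFR thus changed places, and in knockdown both NRG1 values lay inside the range of EGFR. Within libraries, NRG1 stood above EGFR in knockdown replicate 1 alone, at 8.58 against 7.15 RPKM. In knockdown replicate 2 it stood below EGFR, at 9.05 against 9.63 RPKM, as in the wild-type libraries. HBEGF and ERBB3 overlapped in wild type, and the other neighbours in either order did not overlap.

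By RPKM, amphiregulin made up most of the ligand RNA in both groups, but a smaller share of it in knockdown. The 6 ligands summed to 36.6 and 37.4 RPKM in the knockdown libraries, against 55.2 and 49.6 RPKM in the wild-type libraries. AREG held 67.6% and 63.1% of that sum in knockdown and 81.1% and 83.2% in wild type. The share of NRG1 was 23.4% and 24.2% in knockdown and 9.58% and 8.81% in wild type. There were thus 2.89 and 2.61 units of AREG for each unit of NRG1 in the knockdown libraries, against 8.47 and 9.45 in the wild-type libraries. Since AREG and NRG1 carry these sums, the shares restate their changes in another form and were not tested on their own. The shares also rest on the length used for each gene, which is not given in the sources used here. In steps, without that length, NRG1 stood above AREG in every library. NRG1 had 4073 and 4864 steps in knockdown and 2945 and 2455 in wild type. AREG had 1215 and 1312 in knockdown and 2577 and 2397 in wild type. The receptors had no such split, as EGFR held 34.0% and 41.4% of the receptor sum in knockdown and 36.6% and 32.2% in wild type, and these ranges overlap.

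**Figure D3:**
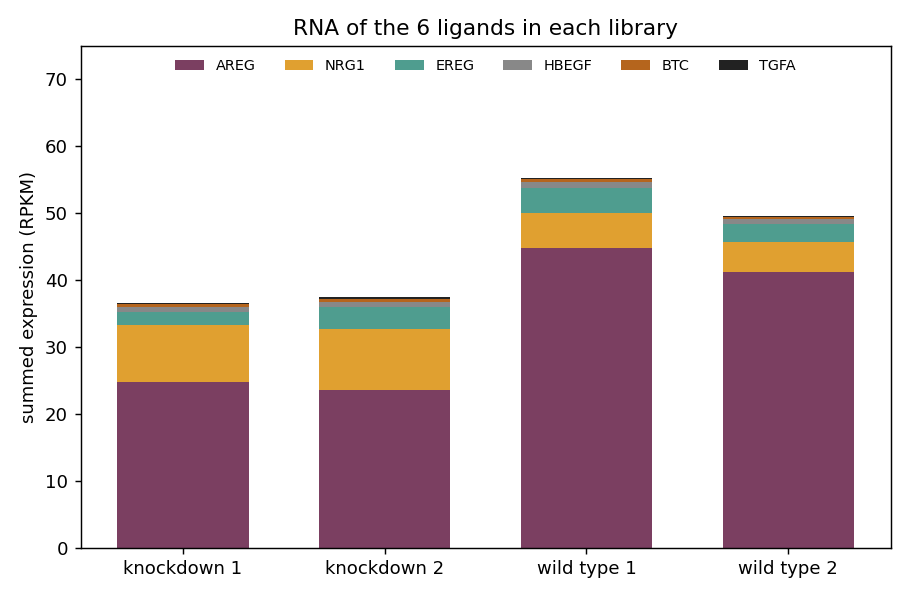
Summed RPKM of the 6 ligands in each library, stacked by gene, knockdown left of wild type. The AREG segment is shorter and the NRG1 segment taller in the 2 knockdown libraries than in the 2 wild-type libraries, and the remaining ligands are a small part of each bar.

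The NRG1 splicing event concerned where the transcript begins. NRG1 has several promoters, whose products differ in their N-terminal part and share the EGF-like domain that binds the receptors. The deposited table annotates the event as altPromoter and sets the junction from 32722042 to 32727949 of chromosome 8 against that from 32616885 to 32727949, 2 donors that join the same acceptor (hg38). In GENCODE v29, 4 of 22 NRG1 transcripts held the examined junction, with its donor at the end of exon 1 in all 4 and starts between 32721753 and 32721845. The junction set against it was found in 9 transcripts, which begin upstream, between 31640426 and 32614375, and its donor exon spans 51 bases, 32616835 to 32616885. The acceptor exon, 32727949 to 32728078 in the transcripts with the examined junction, is 130 bases long.

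PSI, percent spliced in, is the share of the examined junction among the junctions it is set against. The table names 1 such junction for each event, and whether others enter the share is not given in the sources used here. For the downstream start of NRG1 it was 15.7% and 15.0% in the knockdown libraries, against 31.0% and 28.6% in the wild-type libraries. The libraries of a group lay close together and the groups did not overlap, which holds for 54.2% of the 3744 events tested. The difference was -14.4 percentage points (SE 8.33; 95% interval -34.5 to 5.65) and did not pass limma's test over all events (unadjusted p = 0.131, BH adjusted p = 0.319). In limma the SE of every event is drawn towards the spread over all tested events. The NRG1 libraries had an SD of 0.486 points in knockdown and 1.71 points in wild type (n = 2 each). The interval thus does not measure the scatter of this event alone. The threshold for events was an adjusted p below 0.05 with a PSI difference of at least 0.1, which 0.107% of events reached. The 1 family event did not reach it, nor an unadjusted p below 0.05, which 18.4% of events had. Events are listed only where the authors' measure of spread was 0.15 or more, so that listed events differ by selection, and 49.8% of all tested events had a difference as large as that of NRG1. The other 8 members had no event in this list, and nothing is known here of their splicing. The table gives no read counts, so the depth behind each PSI is unknown. In the same libraries the NRG1 level was 8.81 ± 0.335 RPKM in knockdown and 4.83 ± 0.653 RPKM in wild type (SD, n = 2 each), so the gene read higher where the share of its downstream start read lower.

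**Figure D4:**
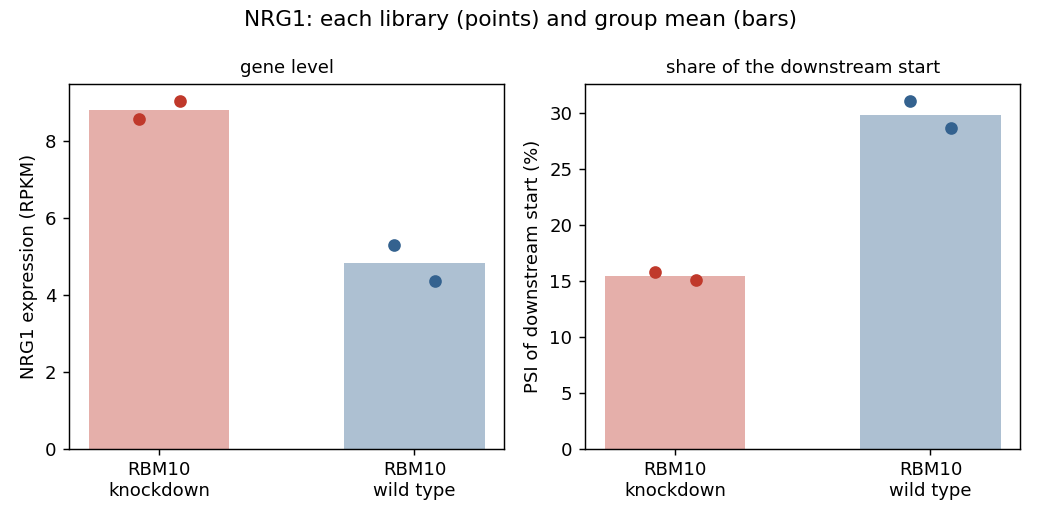
NRG1 level in RPKM (left) and PSI in percent of the junction from the downstream first exon (right), with a point for each of the 2 libraries of a group and a bar for their mean. In knockdown the level is near 8.81 RPKM and the PSI near 15.4%, against 4.83 RPKM and 29.8% in wild type.

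Among all other tested genes, the one whose pattern over the 4 libraries was most like that of AREG was TRIT1, with a Euclidean distance of 0.040 in centred log2(RPKM + 1). TRIT1, a tRNA-modifying enzyme, was at 4.14 and 4.07 RPKM in knockdown and at 8.14 and 7.63 RPKM in wild type. The gene most like NRG1 was RND3, an atypical small GTPase, at a distance of 0.045, with 10.4 and 11.1 RPKM in knockdown and 6.58 and 5.22 RPKM in wild type. With 4 libraries in 2 groups, likeness of this kind is a description.

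The other genes of the family were scarce. EGF, the ligand that gives the family its name, was at 0.616 and 0.544 RPKM in knockdown, against 0.0964 and 0.138 RPKM in wild type, or 109 steps in each knockdown library and 20 and 29 steps in the wild-type libraries. It lay below the level for testing, and without the filter it passed as higher (log2 change 0.50; limma, BH adjusted p = 0.0128), where 9.07% of genes passed, 7.18% as higher and 1.89% as lower. With a pseudocount of 0.1 its log2 change was 1.65. NRG2 was at 0.113 and 0.147 RPKM in knockdown and at 0.131 and 0.117 RPKM in wild type. NRG4, a ligand of ERBB4, was at 0.156 and 0.124 RPKM in knockdown and at 0.210 and 0.204 RPKM in wild type (adjusted p = 0.192 in limma without the filter). ERBB4, EPGN and NRG3 were not analysed here.

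Around the receptors, most genes of the pathway did not pass the test, and the calls that were made fell on release, feedback and signalling alike. Of 67 tested genes in the 7 lists 11 rose and 3 fell, or 16.4% and 4.48%, beside 15.3% and 7.03% of all tested genes, and their median log2 change was 0.10. Of the 14, only ADAM19, ERRFI1, GRB7, INPP4B and PHLDA1 kept the call under the 10 alternative settings. Of 11 proteases that release or trim these ligands and their cofactors, 9 were tested, and 3 rose and 0 fell, with a median log2 change of 0.06. ADAM19, a metalloprotease that can cleave NRG1, was at 3.28 and 3.73 RPKM in knockdown, against 1.56 and 1.50 RPKM in wild type (log2 change 0.83; limma, BH adjusted p = 0.000844). RHBDF1, or iRhom1, which helps ADAM17 mature, was at 8.25 and 7.34 RPKM in knockdown and at 4.89 and 5.34 RPKM in wild type (0.52; adjusted p = 0.0100, and 0.0843 without knockdown replicate 1). BACE1, a protease with NRG1 among its substrates, was at 1.19 and 1.36 RPKM in knockdown and at 0.775 and 0.717 RPKM in wild type (0.38; adjusted p = 0.0337), and the settings that ended its call included leaving out knockdown replicate 2 (adjusted p = 0.103), wild-type replicate 1 (0.0965) or wild-type replicate 2 (0.133), quantile normalization (0.133) and testing without the filter (0.0716).

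Among 14 feedback inhibitors and ubiquitin ligases, 9 were tested, 1 rose and 1 fell, with a median of -0.07. Without the filter, where all 14 were tested, 1 rose, a gene other than CBLB, and 2 fell. Of all genes 7.18% rose and 1.89% fell in that setting. ERRFI1, or MIG6, which binds the EGFR kinase domain and blocks it, fell to 5.95 and 6.40 RPKM in knockdown, against 10.8 and 10.5 RPKM in wild type (log2 change -0.70; limma, BH adjusted p = 0.00144). CBLB, a ubiquitin ligase that can mark receptors for degradation, was at 1.31 and 1.35 RPKM in knockdown and at 0.787 and 0.610 RPKM in wild type (0.46; adjusted p = 0.0168, 0.103 without wild-type replicate 2, 0.0638 under quantile normalization and 0.0546 without the filter). Of 14 adaptors 2 rose and 0 fell without the filter. In the main test 9 adaptors were tested, and 1 rose and 0 fell, with a median of 0.10. This was GRB7, an adaptor that binds ERBB2 and whose gene lies near ERBB2, at 5.64 and 4.87 RPKM in knockdown, against 2.71 and 2.83 RPKM in wild type (0.73; adjusted p = 0.00201).

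In the RAS, RAF, MEK and ERK list, 12 of 15 genes were tested, 1 rose and 1 fell, and the median was 0.02. KSR1, a scaffold for RAF and MEK, was at 1.93 and 2.12 RPKM in knockdown and at 1.23 and 1.13 RPKM in wild type (log2 change 0.47; limma, BH adjusted p = 0.0145, 0.0616 without wild-type replicate 2 and 0.0630 without the filter). RASA1, which switches RAS off, was at 4.47 and 5.46 RPKM in knockdown and at 8.33 and 6.51 RPKM in wild type (-0.49; adjusted p = 0.0317), with no call without knockdown replicate 1 (adjusted p = 0.173), without wild-type replicate 1 (0.130) or without the filter (0.122). Of 13 PI3K and AKT genes 10 were tested, and 3 rose and 0 fell, with a median log2 change of 0.17. INPP4B, a phosphatase of PI3K lipid products, was at 2.08 and 2.26 RPKM in knockdown, against 0.575 and 0.595 RPKM in wild type (1.00; adjusted p = 0.000205). AKT1, a kinase downstream of PI3K, was at 49.3 and 46.4 RPKM in knockdown and at 34.4 and 37.5 RPKM in wild type (0.40; adjusted p = 0.0171), and the settings that ended its call included leaving out knockdown replicate 1 (adjusted p = 0.130) or wild-type replicate 1 (0.0580) and median-of-ratios scaling (0.0831). The genes described from this list thus hold both a kinase of the pathway and a phosphatase of its lipid products.

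Of 10 genes known to follow ERK activity, 6 were tested, 1 rose and 1 fell, with a median of 0.14. PHLDA1, a nuclear and cytoplasmic protein induced by growth factors, was at 3.33 and 3.26 RPKM in knockdown, against 1.83 and 1.90 RPKM in wild type (log2 change 0.58; limma, BH adjusted p = 0.00472). CCND1, cyclin D1, was at 14.4 and 15.9 RPKM in knockdown and at 20.4 and 21.8 RPKM in wild type (-0.45; adjusted p = 0.0131, and 0.116 without knockdown replicate 1). Of 12 endocytosis genes, all tested, 1 rose and 0 fell, with a median of 0.04. This was AP2A1, a subunit of the clathrin adaptor AP-2, at 42.2 and 38.0 RPKM in knockdown and 29.2 and 31.7 RPKM in wild type (0.39; adjusted p = 0.0245). The settings that ended the call of AP2A1 included leaving out knockdown replicate 1 (adjusted p = 0.214) or wild-type replicate 1 (0.0758), median-of-ratios scaling (0.108) and testing without the filter (0.0654).

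**Figure D5:**
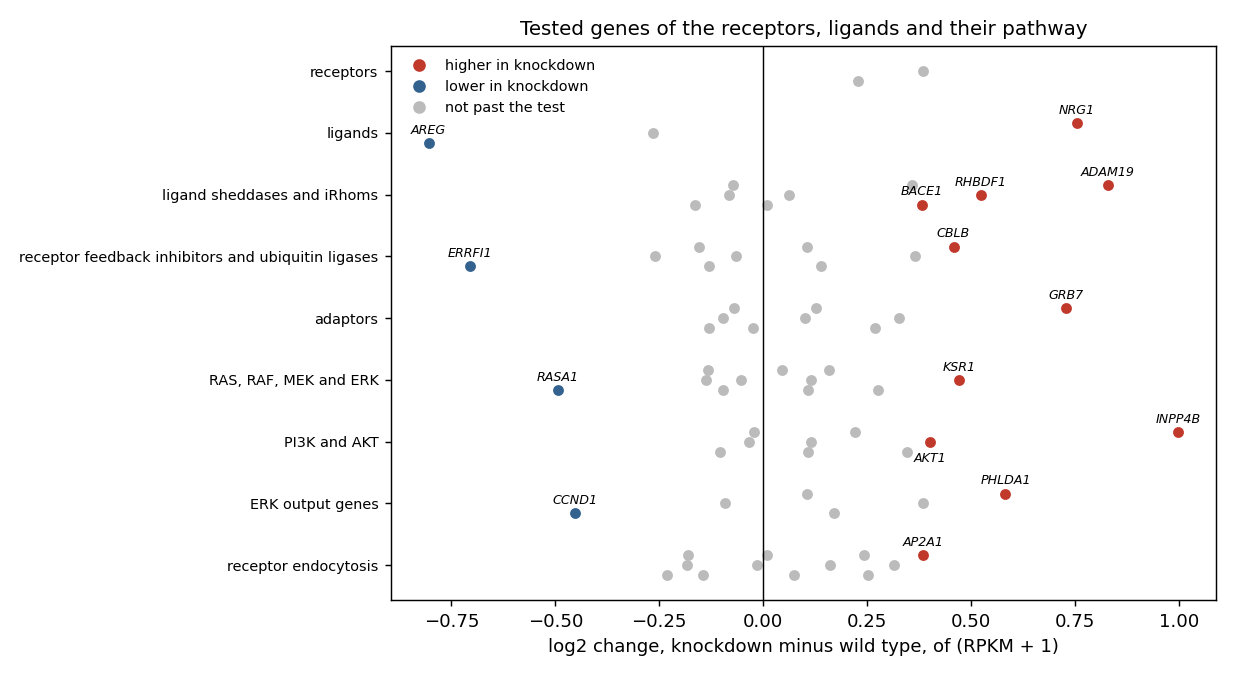
Log2 change in RPKM + 1, knockdown minus wild type, of tested genes of the receptors, the ligands and the pathway lists, 1 row a list. Genes past limma's test are named, red where higher and blue where lower in knockdown, and grey points did not pass. Most points are grey, and AREG and ERRFI1 lie furthest to the left.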

How the data were processed

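Polyadenylated RNA of 2 knockdown and 2 wild-type libraries was sequenced with a stranded kit, per the labels' protocols, and aligned to hg38 with STAR 2.6.1 among the tools named, per the submitters' processing notes. Which counter, annotation and splicing caller were used is not given in the sources used here. Expression was deposited by the authors in a unit taken here as RPKM, inferred from the values, which are whole multiples of a step that differs between genes and libraries. PSI was deposited by the authors as a fraction from 0 to 1, and a spread over libraries beside it. Gene names came from a table that held 16921 of the 17041 identifiers, and otherwise from GENCODE v29, which also gave positions. A name other than the identifier was found for 15899 genes.

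Genes whose mean reached 1 RPKM in either group were compared on log2(RPKM + 1) in limma 3.58.1 (R 4.3.3), by a two-sided moderated test with a variance trend and a threshold of 0.05 after Benjamini-Hochberg adjustment over all tested genes. PSI was tested likewise without trend. Both were also tried on simulated data whose means and spread were taken from these data. Intervals are unadjusted. Alternatives changed the pseudocount, filter, scaling, trend, a block and the libraries used. Members and lists were chosen with earlier results of these data known. From each pathway list, up to 4 genes past the test with the largest change were named, along with all members, their relatives and their events. Some genes of the pathway lists and their events enter the counts but are not reported or plotted here.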

Additional observations from a re-analysis of the deposited data

How the results depend on the processing

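AREG as lower and NRG1 as higher held under the 10 alternatives run, with adjusted p up to 0.0127 and 0.0281 in limma. The counts of members called, 1 higher and 1 lower, ranged from 1 to 2 higher and from 1 to 2 lower with a library left out, through EGFR and EREG. With libraries left out, the log2 change of EREG ranged from -0.551 without knockdown replicate 2 to 0.0202 without knockdown replicate 1, a turn in sign. A test of 2 against 1 libraries assumes that the lone library varies like the others. Over all genes, 1555 were called higher and 716 lower, and with a library left out 1269 to 1369 higher and 413 to 657 lower. The lower count was 322 without the filter, where more genes were tested, and 1498 under median-of-ratios scaling, where the cause was not tested. Replicate numbers are shared by the groups but nothing shows a pairing, and the deviations of same-numbered libraries correlated at -0.44 over genes. With the number as a replicate block, 1280 genes were called higher and 438 lower, members kept 1 and 1, AKT1, AP2A1 and BACE1 had no call (adjusted p = 0.0584, 0.0764 and 0.0659), and the NRG1 event had a difference of -0.144 (adjusted p = 0.437). Crossed pairing, chosen after seeing the data, called 2466 higher and 1730 lower over all genes and 3 members higher and 1 lower. The NRG1 event was not called under any alternative, at differences of -0.156 to -0.132 with a library left out. Of 14 named pathway genes, 5 kept their call under the 10 alternatives, 9 lost it in at least 1 and 0 changed direction. Few reads stand behind TGFA, BTC, HBEGF, EGF, NRG2 and NRG4.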

Other observations

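Splicing of the pathway around the receptors was listed for 11 of its 95 genes, with 18 events. None of the 18 passed limma's test over all events (BH adjusted), and 6 had an unadjusted p under 0.05, beside 18.4% of all 3744 events. The events named here were chosen after their values were seen.

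GRB7, the adaptor that binds ERBB2, was listed with 3 events around exon 13 of 15 (chr17:39745913-39746000, plus strand, hg38). This exon is 88 bases long and wholly coding, a length that is not a multiple of 3, and is shown in full from GENCODE v29, 5′ to 3′.
GRB7 exon 13: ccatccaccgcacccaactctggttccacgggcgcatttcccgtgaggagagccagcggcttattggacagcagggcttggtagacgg
The junction out of this exon, set against the skipping junction, had a PSI of 80.0% and 83.3% in knockdown, against 45.0% and 48.4% in wild type (difference with a 95% interval of 14.7 to 55.2 percentage points; limma, unadjusted p = 0.00519, BH adjusted p = 0.259). The junction into it read 79.0% and 87.9% in knockdown and 65.6% and 61.9% in wild type. The skipping junction, set against the junction into the exon, read 11.4% and 7.53% in knockdown and 26.8% and 28.1% in wild type. The 95% intervals were -1.34 to 40.8 percentage points for the junction into the exon and -38.2 to 2.22 for the skipping junction. In all 3 readings the knockdown libraries lay on the side of inclusion. Groups stood apart in 12 of the 18 pathway events and in 54.2% of all events. The readings share junctions and are not independent of each other.

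RHBDF1, whose level rose, was listed with 3 events of intron retention. In 1 the retained form read 38.0% and 36.4% in knockdown, against 0% in both wild-type libraries, and in another 24.4% and 52.5% in knockdown, against 0% in both (limma, BH adjusted p = 0.259 for each). In the third, which reads the spliced junction, PSI was 41.7% and 33.3% in knockdown and 58.3% and 65.7% in wild type (BH adjusted p = 0.261). The second and the third set the same junctions against each other in opposite order, and their readings disagree in wild type, where 0% retained in one stands against 58.3% and 65.7% spliced in the other. In knockdown, 24.4% and 52.5% retained in one stand against 41.7% and 33.3% spliced in the other, which leaves part of the share unaccounted for. The level of the retained form is therefore not settled by these events in either group. A PSI of 0% has no known depth behind it.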
